A study of Mus musculus with 6 samples.

Results

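Blood vessels grow towards tissues that secrete vascular endothelial growth factors (VEGFs), and they are then shaped and stabilised by angiopoietins and related ligands. The genes described here are 10 such secreted ligands, chosen by name from the 41819 genes of the deposited table: the VEGF family genes Vegfa, Vegfb, Vegfc, Vegfd and Pgf (placental growth factor), the angiopoietin genes Angpt1 and Angpt2, the angiopoietin-like genes Angptl2 and Angptl4, and Hgf (hepatocyte growth factor). All 10 had a row in the table, and 9 of them passed the filter on low counts. Angpt1 did not pass it.

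VEGF-A signals through the endothelial receptors Flt1 and Kdr, VEGF-B and placental growth factor bind Flt1, and VEGF-C and VEGF-D act on lymphatic vessels through Flt4. The neuropilins Nrp1 and Nrp2 serve as co-receptors. Angiopoietin 1 activates the receptor Tek, and angiopoietin 2 competes with it for that receptor. HGF, a classical product of fibroblasts and other mesenchymal cells, acts on epithelial and endothelial cells through the receptor Met. Angptl4 inhibits lipoprotein lipase and is known as a target of hypoxia-inducible factors (HIF) and of the PPAR nuclear receptors.

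RNA-seq was performed on mouse 3T3 cells, an immortal line of embryo fibroblasts that the labels call malignant, grown from a single clone that carries a lentiviral cassette. In it a doxycycline-inducible TetOne promoter drives the cDNA of human PARG (hPARG) together with a fluorescent mClover3 reporter, which the labels call cleavable and the methods place behind an IRES. PARG is the glycohydrolase that takes poly(ADP-ribose) chains apart. Control cells (3 dishes) received no doxycycline and hPARG cells (3 dishes) received 500 ng/ml doxycycline for 72 h, with the cassette and puromycin selection in both groups. There were no cells with doxycycline and without the cassette, so induction of hPARG and exposure to doxycycline cannot be told apart in these 6 samples. Each culture is called a dish, as in the methods, although the labels speak of wells of a plate. All dishes came from 1 clone, so p-values measure the spread between its dishes. The value of the human transgene was not analysed here. The endogenous mouse Parg gene was at 51.3 ± 4.63 CPM without and 52.7 ± 4.31 CPM with doxycycline (mean ± SD, n = 3), and its log2 fold change of 0.04 (95% interval -0.22 to 0.30) turned to -0.03 without hPARG dish 2. CPM are counts scaled to the library total after TMM normalization, which scales the libraries to each other.

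The depth was even, from 21619908 to 25263818 gene counts in a dish (median 22512587 for control, 22482282 for hPARG). A floor of 3 counts in a dish corresponded to between 0.119 and 0.139 CPM before TMM normalization and covers counting error only. The dishes numbered 2 stood apart from the other 4 in both groups. On the principal component with the most variance (42.0%), control dish 2 lay at 21.6 and hPARG dish 2 at 24.7, whereas the other dishes lay between -27.4 and -3.17. For this reason each of the 9 tested ligands is given with and without the dishes numbered 2.

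The cells carried fibroblast transcripts and almost none of blood vessels. Of 12 fibroblast marker genes, 10 passed the filter, and the intermediate filament gene Vim was the most abundant at 1548 RPKM (counts scaled to gene length and library total, deposited by the authors, mean of 6 dishes), although Lum had at most 4 counts in a dish. The fibroblast markers had a median log2 fold change of 0.34 over the 10 tested, with 9 estimates above 0 and 1 below, and by edgeR 4 higher and 1 lower at an unadjusted p under 0.05, which 3.95% of all tested genes reached. None passed the FDR in the main fit. Col1a1, named after its values were seen, had a log2 fold change of 0.58 there (edgeR FDR = 0.999), and of 0.63 without the dishes numbered 2, where it passed (edgeR FDR = 0.00674). The RPKM of the 12 fibroblast markers summed to 3576, 3203 and 3492 in the control group and to 3738, 3411 and 3830 in the hPARG group, which overlap. Of 12 endothelial markers, Kdr alone passed the filter, and it was also the most abundant at 0.0807 RPKM. The endothelial markers Emcn and Erg were at 0 in all 6 dishes. The RPKM of the 12 endothelial markers summed to 0.342, 0.251 and 0.265 in control dishes 1 to 3 and to 0.218, 0.206 and 0.232 in hPARG dishes 1 to 3. Of 10 markers of pericytes and smooth muscle, 3 passed the filter, led by Des at 1.51 RPKM, and the list summed to 2.21, 1.74 and 2.26 RPKM in control and to 2.43, 2.63 and 2.39 RPKM in hPARG dishes 1 to 3. The endothelial and the pericyte sums were low in all dishes and did not overlap between the groups, the first lower and the second higher in hPARG cells. Of these markers 11 of the 12 endothelial and 7 of the 10 pericyte and smooth muscle genes missed the filter, and the sums were not tested. Among single tested genes, 9.62% had groups that did not overlap in CPM in either direction. The macrophage and the epithelial sums overlapped. The part of the marker genes in the ligand values was not tested. Of 10 macrophage markers, 4 passed, led by Cd14 at 4.88 RPKM, with Adgre1 at 0 in every dish. None of 10 epithelial markers passed, the most abundant was Krt8 at 0.164 RPKM, and Cldn4 was at 0 in every dish.

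The ligands covered a wide range of levels. On the RPKM scale, which allows genes to be compared per length, Vegfb stood highest at 54.9 ± 3.19 RPKM (mean ± SD over 6 dishes), above 90.1% of all tested genes. It was followed by Angptl2 at 37.0 ± 2.61 RPKM, Vegfa at 16.5 ± 1.04 RPKM and Vegfc at 5.83 ± 1.12 RPKM. Vegfd (4.26 ± 0.178 RPKM), Angptl4 (2.94 ± 0.530 RPKM) and Hgf (1.62 ± 0.336 RPKM) formed the middle of the order. The lowest were Angpt2 at 0.470 ± 0.130 RPKM, Pgf at 0.269 ± 0.0623 RPKM and Angpt1 at 0.0312 ± 0.0300 RPKM. The ranges over the 6 dishes overlapped for a single pair of neighbours in this order, Angpt2 and Pgf. Vegfc lay between 4.72 and 7.66 RPKM and Vegfd between 4.05 and 4.56 RPKM, so that their ranges came close without meeting. Closer still were Angptl4, with a lowest value of 2.20 RPKM, and Hgf, with a highest value of 2.19 RPKM.

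**Figure D1:**
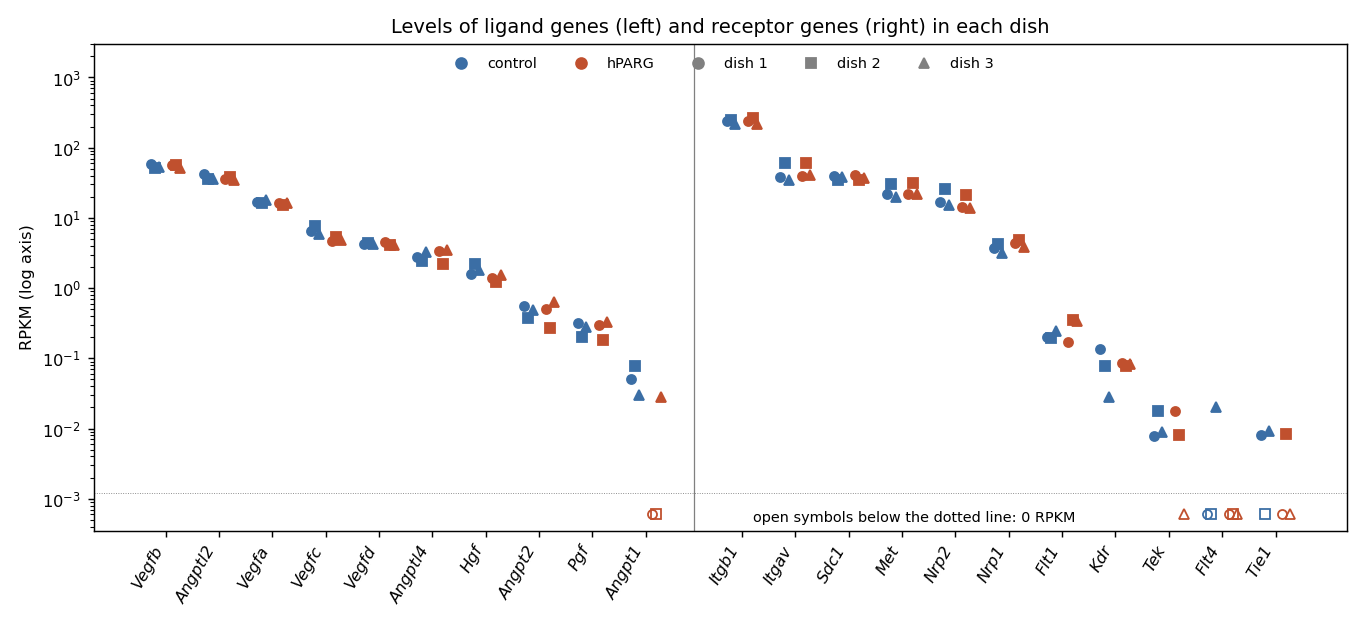
RPKM (log axis) of the 10 ligand genes, in order of their mean, and of 11 receptor genes in each of the 6 dishes, with color for the group, symbol shape for the dish number and open symbols at the bottom for 0 RPKM. Vegfb, Angptl2 and Vegfa lie above 15 RPKM in every dish, and the receptors Tek, Flt4 and Tie1 lie near or at 0.

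The question put to these genes was whether cells induced for hPARG made more or less of the transcripts for angiogenic ligands. No ligand passed the test. By edgeR's quasi-likelihood test, 0 of the 9 tested ligands had a false discovery rate (FDR, adjusted by Benjamini-Hochberg over all 11509 tested genes) under 0.05 with a difference of more than 2-fold, beside 10 genes (0.0869%) in the whole table. At any fold the count of ligands past the FDR was also 0, beside the same 0.0869% of all genes. At an unadjusted p under 0.05 there were 2 ligands, Vegfc and Hgf, both lower in hPARG cells. Of all tested genes, 3.95% reached it in either direction and 2.54% with a lower value. Without both dishes numbered 2 this count of ligands was 1. It was also 1 without control dish 2, control dish 3, hPARG dish 1 or hPARG dish 2 alone. DESeq2 also gave 0 ligands past the FDR at any fold, beside 0.452% of all tested genes, and 1 at an unadjusted p under 0.05, beside 4.05%. Of the 9 estimates 5 were above 0 and 4 below, and their median log2 fold change was 0.009, beside 0.004 over all tested genes.

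**Figure D2:**
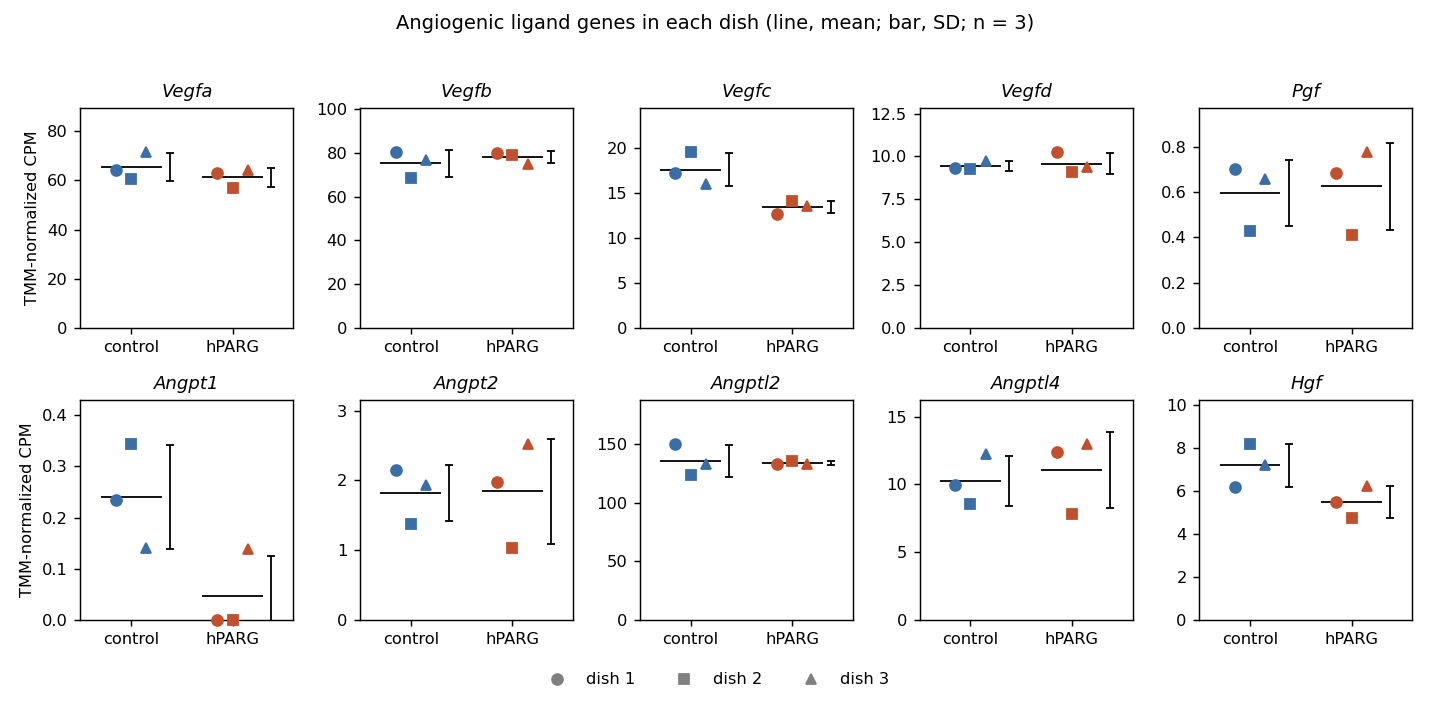
TMM-normalized CPM of each ligand gene in control (blue) and hPARG (orange) dishes, with the mean as a line, the SD as a bar (n = 3) and a separate axis from 0 for each gene. Vegfc has its 3 hPARG dishes between 12.7 and 14.1 CPM, under the 3 control dishes, while the groups of Vegfa, Vegfb, Vegfd, Pgf, Angpt2, Angptl2, Angptl4 and Hgf overlap.

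Vegfc, the ligand of lymphatic vessel growth, was the only one of the 9 tested ligands whose groups did not overlap on the scale of TMM-normalized CPM (ENSMUSG00000031520, GRCm38 chromosome 8, 54077606 to 54187096). It had 17.2, 19.6 and 16.0 CPM in control dishes 1 to 3 and 12.7, 14.1 and 13.5 CPM in hPARG dishes 1 to 3, from between 277 and 455 counts per dish. Every hPARG dish was below every control dish. Among all tested genes, groups that did not overlap in this direction were seen for 691 (6.00%), and for 1107 (9.62%) in either direction. On the RPKM scale 3 of the 9 were lower without overlap, beside 7.69% of all tested genes. They were Vegfc, Vegfa (16.4 to 18.2 RPKM in control, 15.1 to 16.2 RPKM in hPARG cells) and Hgf (1.61 to 2.19 RPKM in control, 1.23 to 1.54 RPKM in hPARG cells). The log2 fold change of Vegfc was -0.39 with a 95% interval from -0.66 to -0.12, a difference of -23.6% that missed the threshold (edgeR, unadjusted p = 0.011, FDR = 0.906). Without both dishes numbered 2 it was -0.34 (standard error 0.122, edgeR FDR = 0.524).

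Vegfa, the principal driver of vessel sprouting (ENSMUSG00000023951, chromosome 17, 46016993 to 46032369), had 64.2, 60.4 and 71.7 CPM in control dishes 1 to 3. In hPARG dishes 1 to 3 it had 62.9, 57.0 and 64.2 CPM, so that 2 of these 3 dishes fell inside the control range of CPM. Its log2 fold change was -0.09 with a 95% interval from -0.34 to 0.16, which in percent runs from -21.1 to 11.4, and it was -0.09 also without the dishes numbered 2 (edgeR FDR = 0.999 and 0.930). The log2 ratio of Vegfc to Vegfa counts within a dish does not depend on the scaling between libraries. Control dishes 1 to 3 gave -1.90, -1.63 and -2.17, and hPARG dishes 1 to 3 gave -2.31, -2.02 and -2.25, so the groups overlapped. The means were -1.90 ± 0.270 and -2.19 ± 0.155 (SD), and they differed by -0.29 (two-sided exact permutation test, p = 0.2, where 3 dishes against 3 allow no p under 0.1). It was -0.16 without control dish 2 and -0.43 without control dish 3, the ends of the range with 1 dish left out. The ratio of Angpt2 to Angpt1 was not computed because Angpt1 had 3 counts or fewer in 4 of the 6 dishes.

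Vegfb, a ligand of Flt1 (ENSMUSG00000024962, chromosome 19, 6982473 to 6987651), lay between 68.5 and 80.6 CPM in control and between 74.9 and 80.0 CPM in hPARG cells. Its log2 fold change of 0.05 (95% interval -0.18 to 0.28) turned to -0.02 without the dishes numbered 2. Vegfd, the other lymphatic ligand (ENSMUSG00000031380, chromosome X, 164373378 to 164402650), was even across dishes, between 9.25 and 9.76 CPM in control and between 9.07 and 10.3 CPM in hPARG cells. Its log2 fold change was 0.02 (95% interval -0.24 to 0.28) and 0.05 without the dishes numbered 2, and it turned to -0.0073 with scaling by library size alone. Pgf (ENSMUSG00000004791, chromosome 12, 85166635 to 85177790) rested on 10 to 18 counts per dish, and its log2 fold change of 0.06 had a 95% interval from -0.84 to 0.95. With these counts and 3 dishes per group, differences in Pgf inside this interval cannot be told apart. Without the dishes numbered 2 the log2 fold change of Pgf was 0.11 (standard error 0.540). With 1 dish left out it turned to -0.1296 without control dish 2, -0.0163 without hPARG dish 1 and -0.129 without hPARG dish 3.

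The bases ahead of the start sites of 4 genes are printed to set the ligands beside a chemokine gene that fell. They are Vegfa, the ligands with the lowest estimates (Vegfc and Hgf), and Cxcl1. Of the chemokine genes that fell only Cxcl1 is printed, and 1 gene cannot stand for the others. The sequences are those of RefSeq on GRCm38.p6, which matched 7 of the 10 ligands by symbol, and each gives the 250 bases upstream of a RefSeq start in the direction of the gene, chr17:46032378-46032627 (minus strand) for Vegfa, chr8:54077282-54077531 (plus strand) for Vegfc, chr5:16553245-16553494 (plus strand) for Hgf and chr5:90890995-90891244 (plus strand) for Cxcl1. By the annotation these bases lie outside the genes, except for the last 4 of Cxcl1. Capitals mark matches to the kappaB consensus of 10 bases, the sequence bound by NF-kB, searched on both strands.
Vegfa: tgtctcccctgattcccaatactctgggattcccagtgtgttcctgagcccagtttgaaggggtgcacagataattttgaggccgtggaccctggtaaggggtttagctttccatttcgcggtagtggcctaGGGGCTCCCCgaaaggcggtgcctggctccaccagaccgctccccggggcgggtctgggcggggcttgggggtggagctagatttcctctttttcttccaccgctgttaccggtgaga
Vegfc: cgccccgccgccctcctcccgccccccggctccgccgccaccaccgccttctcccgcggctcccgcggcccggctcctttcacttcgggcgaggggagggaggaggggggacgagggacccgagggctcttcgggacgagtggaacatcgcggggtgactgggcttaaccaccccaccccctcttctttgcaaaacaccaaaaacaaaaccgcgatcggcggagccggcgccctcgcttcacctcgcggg
Hgf: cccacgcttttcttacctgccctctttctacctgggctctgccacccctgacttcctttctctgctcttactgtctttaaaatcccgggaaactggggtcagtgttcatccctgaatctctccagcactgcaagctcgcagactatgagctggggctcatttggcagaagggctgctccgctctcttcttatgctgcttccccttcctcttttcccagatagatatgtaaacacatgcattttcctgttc
Cxcl1: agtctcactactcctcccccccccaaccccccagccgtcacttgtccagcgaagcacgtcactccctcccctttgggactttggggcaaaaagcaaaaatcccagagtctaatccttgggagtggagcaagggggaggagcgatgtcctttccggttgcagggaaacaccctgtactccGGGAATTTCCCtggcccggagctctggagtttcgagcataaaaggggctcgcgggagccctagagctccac
The window of Vegfa holds 1 match that begins 118 bases ahead of the start, and that of Cxcl1 holds 2 overlapping matches, on opposite strands, the outermost beginning 71 bases ahead. The windows of Vegfc and Hgf hold 0. Over the 10 windows listed for the 7 ligands, 1 holds a match, and of all 32841 windows of this length 3.90% do. Bases G and C make up 71.6% of the window of Vegfc, 59.2% of those of Vegfa and Cxcl1, and 50.8% of that of Hgf. A match describes these letters and not the binding of a factor.

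Hgf (ENSMUSG00000028864, chromosome 5, 16553495 to 16620152) gave the same estimate as Vegfc with a wider spread. It had 6.17, 8.17 and 7.21 CPM in control dishes 1 to 3 and 5.46, 4.74 and 6.24 CPM in hPARG dishes 1 to 3. The highest hPARG dish lay just above the lowest control dish, so the groups overlapped in CPM. The log2 fold change was -0.39 with a 95% interval from -0.78 to -0.0030 (edgeR, unadjusted p = 0.0488, FDR = 0.999). Without both dishes numbered 2 it was -0.19 (standard error 0.191, edgeR FDR = 0.925), since control dish 2 was the highest and hPARG dish 2 the lowest of all. Of the exon bases of Hgf, 6.74% are shared with the gene Gm43489 on the same strand, and how reads in them were divided is not given in the sources used here.

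The angiopoietins were scarce. Angpt1, the activating ligand of Tek (ENSMUSG00000022309, chromosome 15, 42424723 to 42676977), had 6, 8 and 3 counts in control dishes 1 to 3 and 0, 0 and 3 counts in hPARG dishes 1 to 3. Summed over dishes these were 17 counts in control and 3 in hPARG cells. The ratio was 5.49 after normalization, with an exact 95% interval from 1.59 to 29.2 that covers counting error only. All 3 hPARG counts came from dish 3, without which the ratio has no finite value. Control dish 2 held 8 of the 17 control counts. The groups of Angpt1 did not overlap in CPM or RPKM (0.0297 to 0.0774 RPKM in control, 0 to 0.0285 RPKM in hPARG cells). Dishes 3 of the groups had the same count, however, and Angpt1 did not enter the filtered fit. Of its exon bases, 14.2% are shared with Gm17473 on the other strand, and whether the authors counted by strand is not given in the sources used here. Angpt2, its competitor (ENSMUSG00000031465, chromosome 8, 18690263 to 18741562), had 2.15, 1.38 and 1.93 CPM in control and 1.97, 1.03 and 2.52 CPM in hPARG dishes 1 to 3. The dishes numbered 2 were the lowest of either group, and the spread within groups was far larger than the difference between them. Its log2 fold change of 0.0090 had a 95% interval from -0.82 to 0.84, became 0.14 without the dishes numbered 2, and turned to -0.02 with scaling by library size alone.

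Angptl2, a secreted protein that binds integrins (ENSMUSG00000004105, chromosome 2, 33216069 to 33247717), had between 2817 and 3850 counts per dish, the most of the 10 ligands. In control dishes it lay between 123.8 and 150.3 CPM and in hPARG dishes between 132.8 and 135.6 CPM, so every hPARG dish fell inside the control range. The log2 fold change was -0.02 with a 95% interval from -0.26 to 0.22, and -0.09 without the dishes numbered 2. Angptl4 (ENSMUSG00000002289, chromosome 17, 33773750 to 33781830) had 9.95, 8.52 and 12.2 CPM in control and 12.4, 7.83 and 13.0 CPM in hPARG dishes 1 to 3. Here too the dishes numbered 2 were the lowest of their groups. The log2 fold change of 0.11 (95% interval -0.39 to 0.62) was 0.20 (standard error 0.142) without them. It turned to -0.0023 without control dish 2 alone and to -0.0182 without hPARG dish 3 alone.

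**Figure D3:**
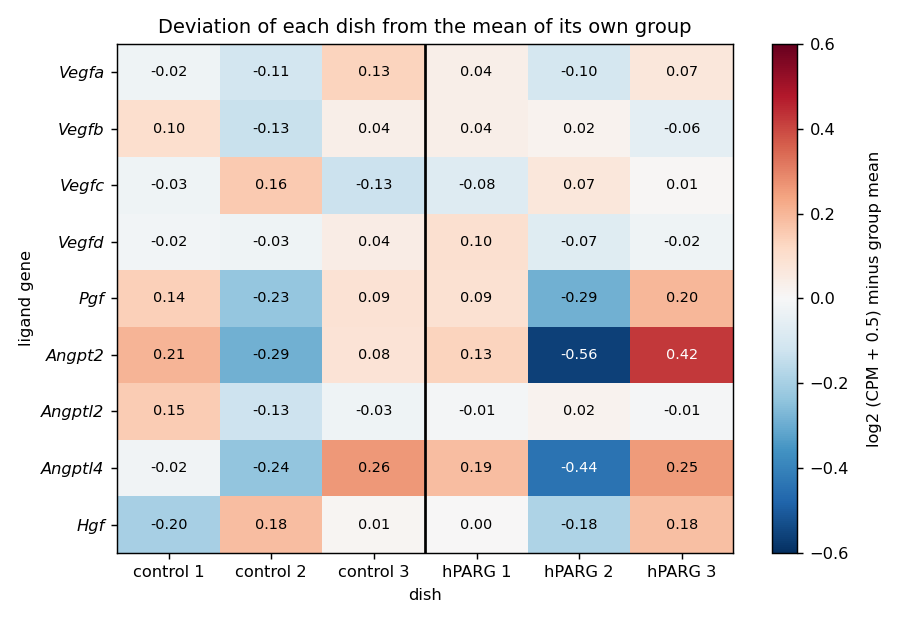
Deviation of log2 (CPM + 0.5) in each dish from the mean of its own group, for the 9 tested ligand genes, with red above and blue below the mean. Angpt2 is at -0.29 in control dish 2 and at -0.56 in hPARG dish 2, and Angptl4 at -0.24 and -0.44, while Vegfc is above its mean in both.

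The dishes numbered 2 were the extremes of several ligands. Of the 9 tested ligands, 5 had their lowest value in dish 2 of both groups (Vegfa, Vegfd, Pgf, Angpt2 and Angptl4) and 1, Vegfc, had its highest value there. The share of all tested genes that did so was not counted, so these counts do not set the ligands apart. The dishes numbered 2 also differed by gene length across the table. Control dish 2 deviated from its group by a median log2 value of 0.25, and hPARG dish 2 by 0.24, over the 1151 tested genes of greatest exon length (median 12640 bases). Over the 1151 shortest genes (median 1363 bases) these medians were -0.24 and -0.25. An offset for gene length in the fit turned the sign of none of the 9 estimates, with Vegfa at -0.08 and Angptl4 at 0.13. The spread of Vegfd within groups (2.90% of its mean in control and 6.47% in hPARG cells, as a coefficient of variation) was no larger than the 6.74% and 6.80% that counting error alone gives. For Angptl4 the spread was 18.2% and 25.4%, against a counting error of 6.49% and 6.35%.

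For scale, the angiogenic CXC chemokine genes Cxcl5 and Cxcl1 passed the test in the same cells. Cxcl5 went from between 167.2 and 210.2 CPM in control dishes to between 27.2 and 35.1 CPM in hPARG dishes, a log2 fold change of -2.55 with a 95% interval from -2.88 to -2.22 (edgeR FDR = 0.00153). Cxcl1 went from between 44.7 and 66.3 to between 5.52 and 10.2 CPM, with a log2 fold change of -2.80 and a 95% interval from -3.39 to -2.22 (edgeR FDR = 0.0089), a call that was lost without hPARG dish 1 (FDR = 0.118) at a log2 fold change of -2.76. Ccl2, which attracts monocytes, had a log2 fold change of -1.66 (95% interval -2.16 to -1.15) that missed the threshold (edgeR FDR = 0.062, lower in 3 of 3 hPARG dishes than in any control dish). It passed with DESeq2 (FDR = 1.65e-09) and without the dishes numbered 2 (edgeR FDR = 1.43e-05), and with 1 dish left out its FDR ran from 0.0201 to 0.347 and its log2 fold change from -1.80 to -1.48. The intervals of the 9 ligands all lie above those of these 3 chemokine genes. The 3 were picked as called or largest chemokine genes of these same data, so this gap follows from the choice and serves for scale only. With all 6 dishes the intervals of the 9 tested ligands stay within 2-fold in either direction, and the interval of Pgf reaches beyond it without the dishes numbered 2.

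**Figure D4:**
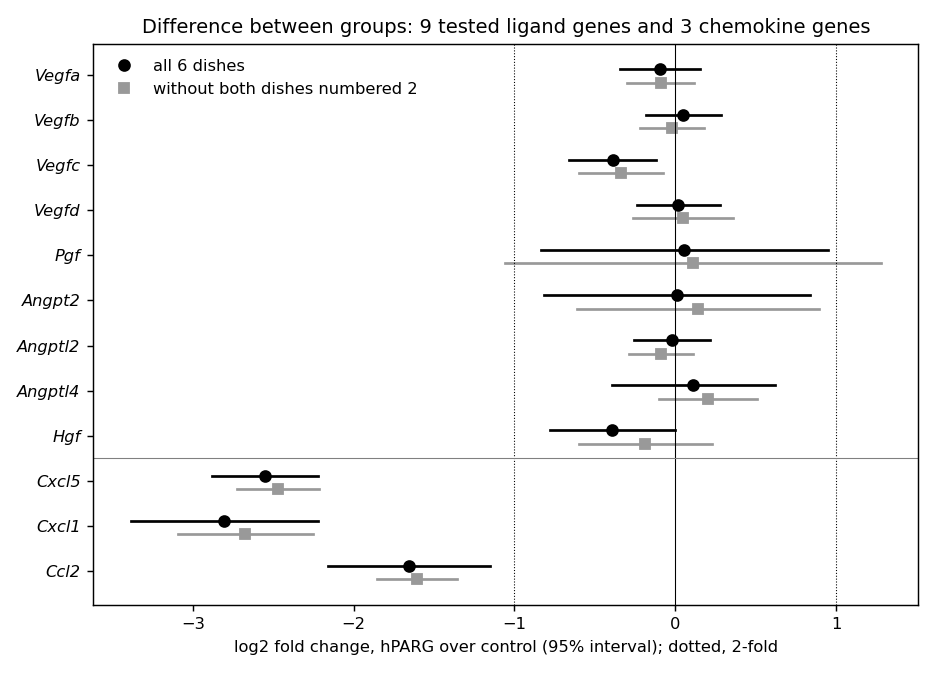
Log2 fold change of hPARG over control with its 95% interval for the 9 tested ligand genes and 3 chemokine genes, from all 6 dishes (black) and without both dishes numbered 2 (grey), with dotted lines at 2-fold. The ligands lie between -0.39 and 0.11 with all dishes, and the chemokines between -2.80 and -1.66.

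The genes whose values over the 6 dishes were most like those of Vegfa, by root mean square distance of log2 CPM centred on each gene's mean, were Tial1 (0.0183), Zfp979 (0.0212) and Styx (0.0221). Hgf had the lowest estimate of the tested ligands with all 6 dishes, by a narrow margin under Vegfc. Without the dishes numbered 2 its estimate was closer to 0 than that of Vegfc. By the same distance, the genes most like Hgf were Ereg (0.0658), Tec (0.0679) and Zfp948 (0.0712). The log2 fold changes of the latter were -0.40, -0.46 and -0.29, and none of the 6 passed the FDR (edgeR FDR = 0.999 for each). The distance takes in the difference between the groups, so genes picked by it have log2 fold changes near those of Vegfa or Hgf by construction.

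Genes that receive the ligands were next examined. None of the 11 tested of 17 receptor and co-receptor genes passed the FDR, 0 had an unadjusted p under 0.05 by edgeR, and the median log2 fold change was 0.06. The most abundant were the integrin genes Itgb1 (236.8 ± 14.4 RPKM in control and 241.1 ± 21.5 RPKM in hPARG cells, mean ± SD, n = 3) and Itgav (44.5 ± 14.1 and 46.7 ± 11.5 RPKM), and the syndecan gene Sdc1 (37.6 ± 2.26 and 37.2 ± 3.14 RPKM). The classical receptors and co-receptors of the ligands were added after their values were seen. Met, the receptor of HGF, was at 24.2 ± 5.63 RPKM in control and 25.1 ± 5.47 RPKM in hPARG cells. Nrp2 was at 19.2 ± 5.43 and 16.4 ± 3.91 RPKM and Nrp1 at 3.71 ± 0.537 and 4.40 ± 0.473 RPKM. Of the endothelial receptors, Flt1 had 45 to 101 counts per dish and Kdr 4 to 22, both tested, while Flt4 had at most 3, Tek at most 2 and Tie1 at most 1.

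Several ligands need proteolysis to become active, and HGF is cleaved by secreted proteases. Of 20 genes for such proteases, activators and inhibitors, 11 were tested, 0 passed the FDR, and by edgeR 1 was higher and 2 were lower in hPARG cells at an unadjusted p under 0.05, with a median log2 fold change of -0.02. The most abundant were Ctsd (175.7 ± 21.3 RPKM in control and 162.7 ± 17.7 RPKM in hPARG cells), Adamts1 (18.9 ± 3.48 and 21.6 ± 2.90 RPKM) and Furin, a convertase that cleaves VEGF-C (11.9 ± 2.76 and 12.3 ± 2.15 RPKM). The 3 genes under an unadjusted 0.05 were named after their values were seen. They were Ccbe1, which helps to activate VEGF-C (log2 fold change -0.71, standard error 0.170), the gelatinase gene Mmp2, with 6 to 20 counts per dish (-1.31, standard error 0.393), and Plau, the urokinase gene (0.44, standard error 0.141). Of 8 other genes of the angiopoietin, angiopoietin-like and HGF-like families, counting the receptor gene Mst1r, 3 were tested, namely Angptl6 (3.13 ± 0.970 and 2.91 ± 0.105 RPKM), Mst1 (0.829 ± 0.0689 and 1.31 ± 0.111 RPKM) and Angpt4 (0.527 ± 0.128 and 0.707 ± 0.164 RPKM). Mst1, which encodes an HGF-like protein, had an unadjusted p of 0.00799 by edgeR (log2 fold change 0.69, FDR = 0.821, higher in 3 of 3 hPARG dishes than in any control dish), and none of the 3 passed the FDR.

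Among 30 other angiogenic ligand genes, 22 were tested, 0 passed the FDR, and by edgeR 2 were higher and 3 lower at an unadjusted p under 0.05, with a median log2 fold change of -0.02. The most abundant were Ccn1, an integrin ligand of the matrix (297.0 ± 28.7 RPKM in control and 370.0 ± 8.38 RPKM in hPARG cells), Grem1 (50.8 ± 2.41 and 44.4 ± 3.33 RPKM) and Efnb2 (36.9 ± 9.25 and 30.6 ± 2.74 RPKM). Ccn1 (log2 fold change 0.35, standard error 0.108) and Tgfb3 (0.28, standard error 0.101) were higher at this unadjusted level. Apln, which encodes the vascular peptide apelin (-0.51, standard error 0.117), Lif (-0.61, standard error 0.158) and Fgf7 (-0.31, standard error 0.0886) were lower. All but Ccn1 were named after their values were seen. Of 18 antiangiogenic genes 13 were tested, 0 passed the FDR, and 0 were higher and 1 lower at an unadjusted p under 0.05 by edgeR. The single gene was Thbs2, a thrombospondin (log2 fold change -0.64, standard error 0.132, FDR = 0.419), named after its value was seen and lower in 3 of 3 hPARG dishes. The most abundant were Sparc (250.4 ± 12.7 and 292.4 ± 23.2 RPKM), Timp2 (156.0 ± 14.6 and 165.7 ± 13.3 RPKM) and Thbs1 (65.8 ± 21.8 and 84.6 ± 20.1 RPKM).

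Vegfa and Angptl4 are classical HIF targets, and other genes of that pathway were examined beside them. Of 10 genes that carry or regulate HIF signalling 9 were tested, and 0 had an unadjusted p under 0.05 by edgeR, with a median log2 fold change of -0.01. Cited2 (142.8 ± 21.2 RPKM in control and 126.7 ± 4.09 RPKM in hPARG cells), the prolyl hydroxylase gene Egln1 (29.3 ± 3.58 and 29.2 ± 4.68 RPKM) and Hif1a (23.2 ± 4.02 and 21.9 ± 2.71 RPKM) were the most abundant. Of 20 other HIF targets 18 were tested, 0 passed the FDR, and 1, P4ha1, was higher at an unadjusted p under 0.05 by edgeR (log2 fold change 0.23, standard error 0.0952, named after its value was seen). The median log2 fold change of the HIF targets was 0.05. The most abundant were the glycolytic genes Pgk1 (935.6 ± 90.7 and 923.4 ± 106.3 RPKM) and Ldha (561.5 ± 52.0 and 582.2 ± 67.5 RPKM), and Bnip3 (54.1 ± 12.2 and 58.3 ± 11.2 RPKM). Of 16 PPAR receptor and target genes 9 were tested, 0 passed the FDR, and 1, Pdk4, was lower at an unadjusted p under 0.05 by edgeR (log2 fold change -0.48, standard error 0.185, named after its value was seen). Their median log2 fold change was -0.0010, and the most abundant were the lipid droplet gene Plin2 (39.6 ± 1.23 and 33.8 ± 3.29 RPKM), Acadvl (20.3 ± 0.713 and 20.3 ± 1.64 RPKM) and Acaa2 (15.8 ± 1.34 and 16.3 ± 1.57 RPKM). Over all these lists, 96 of 139 genes were tested, 0 passed the FDR by edgeR, and 12 had an unadjusted p under 0.05 (5 higher and 7 lower), beside 3.95% of all tested genes. At any fold 1 of them, Apln, passed the FDR with DESeq2 (FDR = 0.028), beside 0.452% of all tested genes. With the likelihood ratio test of edgeR 2 passed, Ccbe1 (FDR = 0.037) and Thbs2 (FDR = 0.0163), beside 0.565%.

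**Figure D5:**
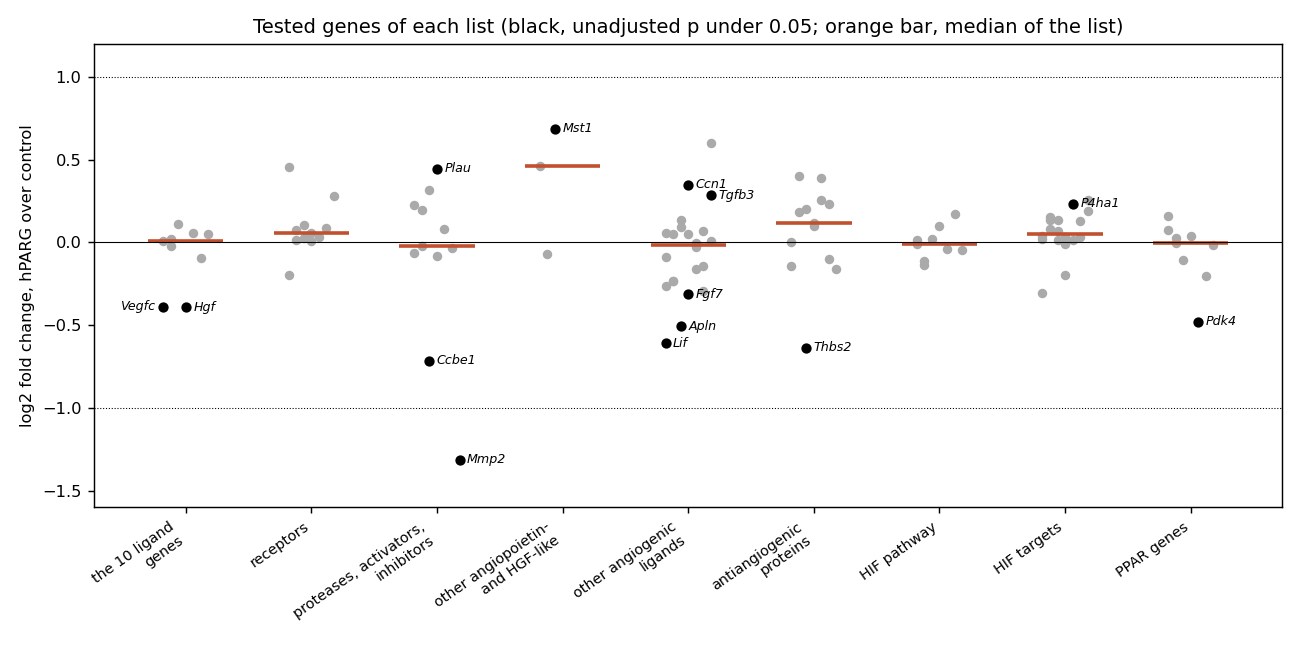
Log2 fold change of hPARG over control for the tested genes of each list, with black points and names for genes at an unadjusted p under 0.05, an orange bar at the median of the list, a thin line at the median of all tested genes and dotted lines at 2-fold. Medians of the pathway lists lie between -0.02 and 0.12 except for 0.46 over the 3 tested genes of the angiopoietin, angiopoietin-like and HGF-like list. Mmp2, with few counts, is the only gene of the pathway lists past 2-fold.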

How the data were processed

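RNA of 6 dishes was sequenced as 150 bp paired-end reads after poly(A) selection. The authors mapped trimmed reads to GRCm38 (Ensembl release 96) in CLC Genomics Workbench and deposited counts per gene, which carry no normalization. The RPKM values that the authors deposited divide counts by a gene length that is not given in the sources used here, and they served for levels only. The 12 TPM and CPM columns and the 6 columns of the authors' own comparison (fold changes and p-values) were not used. Genes were kept with filterByExpr (minimum count 10), normalized by TMM and compared with the quasi-likelihood test of edgeR 4.0.16 (R 4.3.3) over all genes, with an FDR under 0.05 and more than 2-fold for a call. Standard errors are the absolute log2 fold change over the square root of F. Alternatives included DESeq2 1.42.0. Coordinates come from GENCODE release M21. With 3 dishes per group precision is limited, and intervals of counts cover counting error only.

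The ligands and the gene lists were chosen with earlier results of these data known. By the rule for naming, the text gives the 10 ligands, the called genes (none) and the 3 tested genes with the highest RPKM of each pathway list, the most abundant gene of each marker list and markers at 0, the genes most alike, and Cxcl5, Cxcl1 and Ccl2. Parg, Lum, Mst1r and the genes that share exon bases with ligands were named outside this rule, as were genes marked in the text as named or added after their values were seen. Other called genes of the table are not named. The listed names Ero1a and Lilrb3 were read as Ero1l and Pirb.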

Additional observations from a re-analysis of the deposited data

How the results depend on the processing

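With an FDR under 0.05 and more than 2-fold, 0 of the 9 tested ligands were called in the edgeR and DESeq2 fits under the 17 alternatives, and neither was Angpt1 in the fit with no filter, the only one it entered. At any fold, 1 ligand (Vegfc) passed the FDR with the replicate block (log2 fold change -0.39, FDR = 0.0421) and with a length offset and the replicate block together (-0.37, FDR = 0.0392), so the count of ligands was 1 in both, beside 2.87% and 4.20% of all tested genes. It did not pass with DESeq2 and the block (FDR = 0.223), and its FDR reached 1.0 among the other alternatives. The dishes do not establish a pairing by number, since deviations from the group means correlated between dishes 1, 2 and 3 and their namesakes with r = 0.0963, 0.61 and 0.168, and only the dishes numbered 2 correlated best with their own number. The cause was not tested. The whole table gave 23 called genes with the replicate block, 24 with the length offset as well and 16 with DESeq2 and the block, an alternative chosen after seeing the data. It gave 22 with DESeq2, 30 with the likelihood ratio test, 16 with no filter, 16 with the length offset, 19 without both dishes numbered 2, and between 3 and 13 with 1 dish left out (3 without hPARG dish 1 and 5 without hPARG dish 3).

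Of the genes in the pathway lists, 11 passed the FDR at any fold with the replicate block, 15 with the length offset as well and 8 with DESeq2 and the block, beside 2.87%, 4.20% and 2.27% of all tested genes. Among them Apln, Lif, Fgf7, Ccn1, Plau and P4ha1 passed in each of these 3 fits. The fibroblast marker Col1a1 passed in these 3 fits as well (log2 fold change 0.59, FDR = 0.000135, 0.58, FDR = 2.57e-05, and 0.60, FDR = 1.81e-18).

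Estimates close to 0 changed sign, and the cause was not tested. Angpt2 was at -0.0231 with library size only, -0.0294 with the replicate block, -0.0073 with the length offset and the block, and -0.0345 with DESeq2 and the block. Vegfd was at -0.0073 with library size only and Vegfb at -0.0205 without both dishes numbered 2. With 1 dish left out, log2 fold changes ranged from -0.28 to 0.30 for Angpt2, -0.13 to 0.29 for Pgf, -0.013 to 0.11 for Vegfb, -0.0324 to 0.0585 for Vegfd, -0.0815 to 0.0655 for Angptl2, -0.0182 to 0.31 for Angptl4 and -0.0311 to 0.12 for Parg. Vegfc stayed between -0.45 and -0.30, Hgf between -0.49 and -0.29 and Vegfa between -0.15 and -0.02. The order of the levels was the same with annotated exon lengths. Pgf, Angpt2 and Angpt1 had few counts, at most 18, 55 and 8 per dish, and the spread of Angpt2 between dishes (21.9% in control and 41.0% in hPARG cells) was above its counting error of 15.3% and 15.6%.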

Other observations

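Sums of RPKM over a list give its most abundant genes the most weight, and these were looked at after the data were seen, with no test. The 18 antiangiogenic genes summed to 535.5, 567.0 and 497.2 RPKM in control dishes 1 to 3 and to 615.5, 631.5 and 571.3 RPKM in hPARG dishes 1 to 3, so that every hPARG dish was above every control dish. Sparc and Timp2 made up most of these sums. The 10 ligands summed to 133.8, 120.4 and 123.4 RPKM in control and to 124.1, 123.8 and 117.7 RPKM in hPARG dishes, which overlap.

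Of the 18 tested HIF targets, 15 had an estimate above 0 and 3 below, and of all 11509 tested genes 5863 were above and 5646 below. The median log2 fold change of the HIF targets was 0.05. Genes of a list were measured in the same 6 dishes and are not replicates of the treatment, so such counts of signs were not tested and show no shift of a list. The 11 tested receptor and co-receptor genes had 10 above and 1 below, and all pathway lists together had 59 above and 37 below. The summed level of the 20 HIF targets was lowest in the dishes numbered 2, at 1562 RPKM in control and 1559 RPKM in hPARG cells, and lay between 1803 and 1939 RPKM in the other 4 dishes.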
